A study of Mus musculus with 2 samples.

Results

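The regions described here are ATAC-seq peaks of the neonatal mouse organ of Corti that were found in both libraries of the study. They lie between genes, away from the promoters of protein-coding genes. They were chosen by 4 conditions on the peak list labelled WT. The centre of a peak had to lie on chromosomes 1 to 19 outside every GENCODE vM21 gene (build GRCm38, mm10), at 10 to 250 kb from the nearest protein-coding transcription start site (TSS), in a peak narrower than 1000 bp that overlapped a peak of the list labelled Bmi1 KO by at least 1 bp. Of 77826 deposited WT-labelled peaks, 77596 lay on placed chromosomes, 18195 met the conditions on position and width, and 3063 of these also overlapped a Bmi1 KO-labelled peak. These 3063 shared distal peaks are candidate enhancers by position alone, since enhancer marks were not analysed here.

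Both libraries were made from the organ of Corti, the sensory epithelium of the cochlea, dissected at postnatal day 2 without the stria vascularis anlage, modiolus and tectorial membrane. One group was WT and the other Bmi1-/-, from Bmi1+/- parents (FVB.129P2-Bmi1tm1Brn/MvlJ) that had been backcrossed 10 to 12 times to C57BL/6J, and the WT mice were littermates. The Bmi1 mutation was carried in the germline and so was not limited to one cell type. For each genotype 10 mice (20 cochleae) were pooled into 1 library of 20000 cells, so no difference between the genotypes could be tested against the spread between animals, and every interval below covers counting error only. All peak names in the list labelled WT began with bko and all those in the list labelled Bmi1 KO with bwt, so the lists are named by their labels and no direction between genotypes is drawn. At the Bmi1 promoter the strongest peak had a fold enrichment of 2.46 in the WT-labelled list and 2.84 in the Bmi1 KO-labelled list, which does not check the labels, and no shared distal peak was nearest to Bmi1.

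ATAC-seq reads out where the Tn5 transposase can reach DNA. Distal open sites of a tissue are often enhancers, short stretches bound by transcription factors that raise the transcription of genes at a distance, and different cell types open largely different sets of them, while promoters are open in most cell types. Bmi1 belongs to Polycomb repressive complex 1, which ubiquitylates histone H2A and helps to keep developmental genes silent. Intergenic sequence also holds most of the repeats of a genome, and reads from sequence with several copies can be placed at the wrong copy or pile up where the assembly has too few copies.

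A set of 9 shared distal peaks is printed to show what such a region looks like. For each of 7 gene lists described below, the peak with the highest WT-labelled −log10 p among those nearest to a listed gene is given, leaving out peaks made mostly of multi-copy sequence. To these are added the strongest shared distal peak of all and one of those with the longest AC/GT repeats. Each line has 100 bases to each side of the WT-labelled summit, read on the plus strand of GRCm38, and capitals mark matches to the motifs listed further below, or the dinucleotide repeat in the last line.
Gfi1 (hair cells, chr5:107738638-107738838): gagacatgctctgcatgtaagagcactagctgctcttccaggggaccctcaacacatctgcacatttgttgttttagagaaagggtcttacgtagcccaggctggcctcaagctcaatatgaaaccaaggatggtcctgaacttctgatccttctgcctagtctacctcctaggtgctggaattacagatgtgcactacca
Hes1 (supporting and prosensory cells, chr16:29881697-29881897): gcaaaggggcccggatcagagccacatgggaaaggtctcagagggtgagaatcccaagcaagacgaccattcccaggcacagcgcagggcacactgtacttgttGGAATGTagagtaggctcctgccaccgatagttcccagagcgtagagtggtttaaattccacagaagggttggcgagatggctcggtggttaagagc
Gata3 (otic regulators, chr2:9824259-9824459): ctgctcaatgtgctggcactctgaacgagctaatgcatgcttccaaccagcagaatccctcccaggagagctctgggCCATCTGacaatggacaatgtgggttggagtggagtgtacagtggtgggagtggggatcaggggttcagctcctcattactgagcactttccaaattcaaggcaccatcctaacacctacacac
Bmp7 (growth factor signals, chr2:172846097-172846297): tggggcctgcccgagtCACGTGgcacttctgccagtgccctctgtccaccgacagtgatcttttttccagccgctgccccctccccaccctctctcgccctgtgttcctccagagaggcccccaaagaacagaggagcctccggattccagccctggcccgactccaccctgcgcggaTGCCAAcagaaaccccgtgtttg
Ezh2 (Polycomb genes, chr6:47650463-47650663): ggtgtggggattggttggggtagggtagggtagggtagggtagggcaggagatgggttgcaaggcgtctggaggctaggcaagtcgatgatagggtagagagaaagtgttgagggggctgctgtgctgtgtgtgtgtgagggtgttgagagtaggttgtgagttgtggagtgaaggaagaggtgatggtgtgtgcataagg
Ccne1 (cell cycle genes, chr7:38085051-38085251): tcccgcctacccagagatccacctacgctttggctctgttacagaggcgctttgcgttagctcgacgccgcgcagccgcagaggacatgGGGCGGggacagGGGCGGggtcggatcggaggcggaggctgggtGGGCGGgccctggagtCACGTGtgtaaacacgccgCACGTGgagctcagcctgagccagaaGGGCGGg
Trp63 (epithelium, chr16:25549219-25549419): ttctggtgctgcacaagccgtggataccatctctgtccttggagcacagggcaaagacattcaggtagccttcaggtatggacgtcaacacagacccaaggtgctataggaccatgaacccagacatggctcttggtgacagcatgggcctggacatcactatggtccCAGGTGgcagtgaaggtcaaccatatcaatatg
Axin2 (strongest member, chr11:109011795-109011995): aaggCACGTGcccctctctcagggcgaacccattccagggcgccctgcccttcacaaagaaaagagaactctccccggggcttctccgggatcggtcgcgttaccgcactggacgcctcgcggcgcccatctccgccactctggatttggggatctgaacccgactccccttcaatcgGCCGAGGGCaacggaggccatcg
Rps26 (long AC/GT repeat, chr10:128611261-128611461): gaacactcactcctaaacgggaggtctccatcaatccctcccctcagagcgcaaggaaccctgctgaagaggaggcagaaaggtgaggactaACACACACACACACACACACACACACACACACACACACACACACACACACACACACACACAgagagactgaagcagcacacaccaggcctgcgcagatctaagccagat
The Hes1 sequence held 1 TEAD match, the Gata3 sequence 1 E-box of the type bound by Atoh1, and the Bmp7 sequence 1 HES/HEY E-box and 1 NFI core. The Ccne1 sequence was the densest, with 4 KLF/SP matches and 2 HES/HEY E-boxes, a GC content of 68.2% and 20 CpG dinucleotides. The Gfi1 and Ezh2 sequences held no match.

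The overlap with the other list was less frequent for distal peaks than for peaks in general. It was 16.8% of the 18195 distal WT-labelled peaks (95% interval 16.3 to 17.4), where the background over all 77092 WT-labelled peaks on chromosomes 1 to 19 was 24.7%. Among peaks outside genes at any distance it was 21.6%. Since the overlap chose the members, these shares are a description. Counted from the other side, 3011 of 24155 distal Bmi1 KO-labelled peaks overlapped a WT-labelled peak. The members just inside the limits lay 10004 and 248719 bp from a TSS and were 996 bp wide with 1 bp of overlap, and the nearest peaks outside them lay at 9991 and 250414 bp or were 1002 bp wide.

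The shared distal peaks had low enrichment in both libraries, close to that of the lists as a whole. Their median width was 281 bp (200 to 996). The fold enrichment, which is the pileup of reads at the summit over the local background of the same library with 1 added to each, had a median of 2.58 in the WT-labelled list (1.71 to 21.4) and 2.42 for the overlapping peak in the Bmi1 KO-labelled list (1.60 to 20.6), where the medians over all peaks were 2.46 and 2.32. The pileup at the summit had a median of 19 in the WT-labelled list and 22 in the Bmi1 KO-labelled list, over a median background of 6.34 and 8.04. At a q-value of 0.05 or less, 59.1% passed in the WT-labelled list, 70.5% in the Bmi1 KO-labelled list and 1325 (43.3%) in both. Over all peaks the shares were 52.4% in the WT-labelled and 62.8% in the Bmi1 KO-labelled list, and 48.2% of distal WT-labelled peaks with no overlap passed. Only 98 reached a −log10 q of 5 or more in each list.

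Within their own lists the members ranked much alike. The median percentile of the −log10 p was 56.8 among WT-labelled peaks and 57.8 among Bmi1 KO-labelled peaks, and 52.0% of members (50.2 to 53.8) had the higher percentile in the Bmi1 KO-labelled list. Over all 19222 overlapping WT-labelled peaks on placed chromosomes that share was 60.4%. Single members could differ widely between the lists, and agreement member by member was not measured. A peak 61.5 kb from Wnt7a stood at percentile 0.598 of the WT-labelled and 86 of the Bmi1 KO-labelled list. One 88.3 kb from Cdh26 stood at 86 and 0.198. The summits of the overlapping peaks lay a median of 105 bp apart. A summit within 100 bp of that of the strongest overlapping peak was found for 1474 members (48.1%). This was close to the 45.1% of all 19222 overlapping WT-labelled peaks. In 1710 members (55.8%) the overlap covered at least 50% of both peaks. The share in both lists was 12.7% among the weakest 10% of distal WT-labelled peaks and 31% among the strongest 10%.

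**Figure D1:**
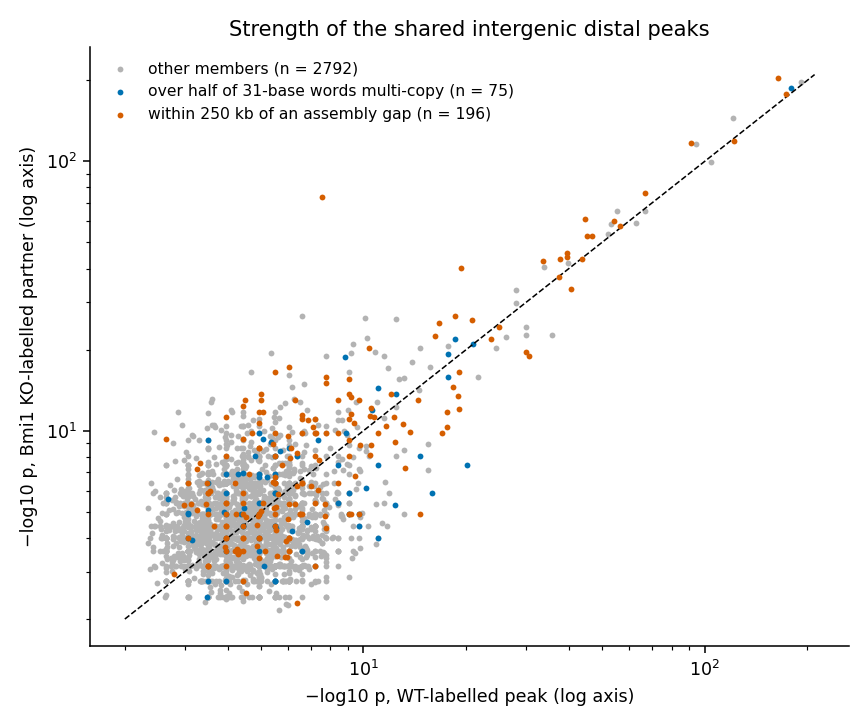
Each point is 1 of the 3063 shared distal peaks, with the −log10 p of the WT-labelled peak on the horizontal axis and that of its overlapping Bmi1 KO-labelled peak on the vertical axis (both log axes), and the dashed line marks equal values. Most points lie in a cloud around a −log10 p of 4, and orange marks the 196 peaks within 250 kb of an assembly gap and blue the other 75 made mostly of multi-copy words.

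Shared distal peaks thinned out with distance from protein-coding promoters. Eligible sequence, meaning bases on chromosomes 1 to 19 outside genes and 10 to 250 kb from a protein-coding TSS, came to 682 Mb, and it held 4.49 members per Mb. The density was 6.45 per Mb (5.97 to 6.96) at 10 to 20 kb, 5.69 at 20 to 50 kb, 4.49 at 50 to 100 kb and 2.75 (2.55 to 2.97) at 100 to 250 kb. The 95% intervals of neighbouring bins did not overlap, except between the first 2 bins. The median distance was 43433 bp. All distal WT-labelled peaks, shared or not, thinned out as well, from 34.8 per Mb at 10 to 20 kb to 18.5 at 100 to 250 kb. The share in both lists also fell across these bins, from 18.5% (17.3 to 19.9) to 14.9% (13.8 to 15.9). Of the members, 57.7% lay upstream of their nearest TSS, and 162 (5.29%) lay within 1 kb of the TSS of a gene of any type. Neither share was computed for other distal peaks or eligible sequence. The rule also leaves out gene bodies, which lie downstream of a TSS, so the upstream share is a description only. Chromosome 11 was the richest at 6.75 per Mb and chromosome 19 the poorest at 2.91.

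**Figure D2:**
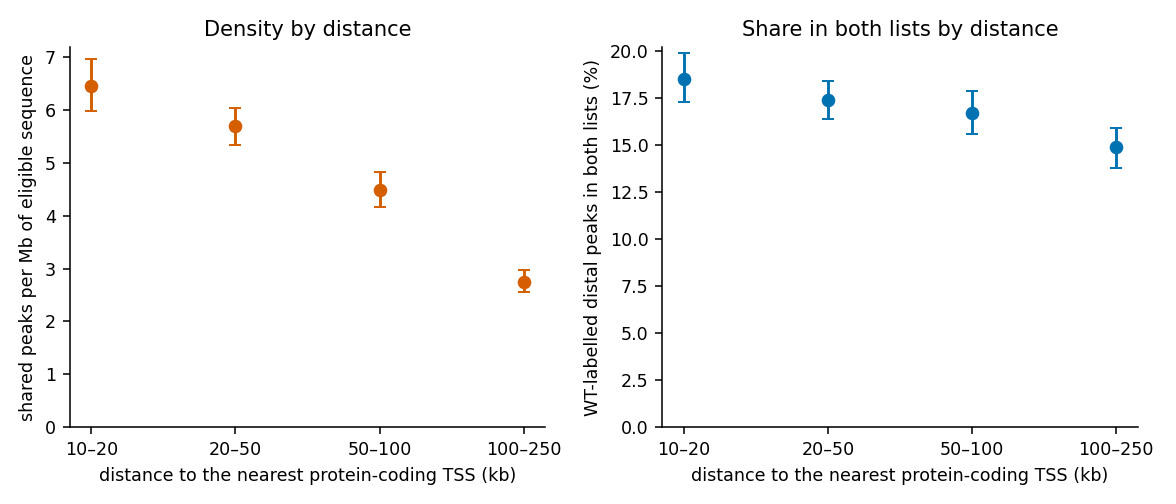
The left plot gives shared distal peaks per Mb of eligible sequence and the right plot the percent of distal WT-labelled peaks found in both lists, in 4 bins of distance to the nearest protein-coding TSS (points, with exact 95% intervals). Both decline with distance, from 6.45 to 2.75 per Mb and from 18.5% to 14.9%.

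Part of the members lay close to each other. A total of 625 (20.4%) lay within 10 kb of another member, in 269 groups of which 222 were pairs. The same share was not computed for other distal peaks, so it does not show that shared peaks cluster more than those. The largest group held 14 members in 32.2 kb at the start of the assembled sequence of chromosome 17, followed by 7 in 19.8 kb at the start of chromosome 4 and 7 in 21.7 kb on chromosome 13 near Prl2c2.

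The strongest shared distal peaks were not typical of the rest. The highest −log10 p belonged to a peak 88.7 kb from Axin2, a feedback inhibitor of Wnt signalling, at 191 in the WT-labelled and 197 in the Bmi1 KO-labelled list, with fold enrichments of 16.3 and 15.3. It was followed by peaks nearest to Gm8797 (−log10 p 179 and 187), Rab10, a GTPase of membrane traffic (173 and 178), Tcp10c (164 and 204), the complement receptor gene Cr2 (122 and 119), the RNase P subunit gene Rpp21 (121 and 145), Gdi2, a regulator of Rab proteins (104 and 99.1), the collagen prolyl hydroxylase gene P4ha2 (94.4 and 116), Fam171a1 (90.9 and 117) and the RNA polymerase III subunit gene Polr3k (67.0 and 76.2). In each of these 10 the values of both libraries were high. The peaks near Gm8797, Rab10 and Tcp10c were made mostly of multi-copy sequence, and those near Tcp10c and Fam171a1 lay 0.151 and 0.261 kb from an unfilled gap of the assembly. Of the 20 strongest members, 10 lay within 250 kb of a gap of at least 50 kb, chromosome ends included.

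Repeat content was measured as the share of bases in lower case in the NCBI GRCm38.p6 sequence, which marks repeats and low-complexity sequence without naming their class. Repeats made up less of the shared distal peaks than of the sequence around them. Masked bases were 22.1% of all bases in members and 22.0% in the 15132 distal WT-labelled peaks with no overlap. They were 30.5% in windows 1 kb to either side of members, each as wide as its member. In 10506 windows of 281 bp spaced evenly over eligible sequence they were 38.2%. Over 50% of bases were masked in 483 members (15.8%, 14.5 to 17.1), compared with 16.2% of peaks with no overlap and 31.7% of eligible windows. No masked base was found in 896 members (29.3%) and in 12.8% of eligible windows. By repeat-masked bases the members and the peaks with no overlap differed by less than their intervals.

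Most members were made of single-copy sequence. Each peak was cut into words of 31 bases, and each word was counted on both strands of the placed nuclear chromosomes. Copies on unplaced contigs were not counted, so single-copy and multi-copy refer to placed chromosomes only. In 1939 members (63.3%, 61.6 to 65) every word occurred at 1 place only. This was below the 69.1% (68.3 to 69.8) of peaks with no overlap and above the 51.7% of eligible windows. Over 50% of words occurred at more than 1 place in 149 members (4.86%, 4.13 to 5.69), which was above the 2.14% (1.92 to 2.38) of peaks with no overlap and below the 10.2% of windows 1 kb away and the 18.2% of eligible windows. Only 69 members, in 28 families of at most 5, shared 20 or more words with another member. No member held a word of the mitochondrial genome, and neither did any peak with no overlap, window 1 kb away or eligible window. Of the 16269 mitochondrial words, 6692 do occur in nuclear chromosomes.

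Repeat content rose with strength. Masked bases were 41.7% in the 100 members with the highest WT-labelled −log10 p, 27.6% in the next 400 and 19.8% in the rest, and the shares made mostly of multi-copy words were 25% (16.9 to 34.7), 12% (8.98 to 15.6) and 2.97% (2.34 to 3.70). Closeness to assembly gaps moved with the same order. Within 250 kb of a gap lay 43.0% of the top 100, 14% of the next 400 and 3.78% of the rest, and over all members the share was 6.40% (5.56 to 7.32), compared with 1.92% of peaks with no overlap and 2.38% of eligible windows. These 196 members had 46.2% masked bases and a median −log10 p of 6.12 in the WT-labelled and 7.54 in the Bmi1 KO-labelled list, compared with 4.45 and 4.44 for the others. Of the 98 members that reached a −log10 q of 5 or more in each list, 49 were within 250 kb of a gap, 24 were mostly multi-copy and 41 were neither. The part of mapping at repeats and gaps in these values was not tested. One member, 184 kb from Samd9l, shared 226 words of 16 bases with Rn18s-rs5, a sequence on chromosome 17 related to 18S ribosomal RNA.

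**Figure D3:**
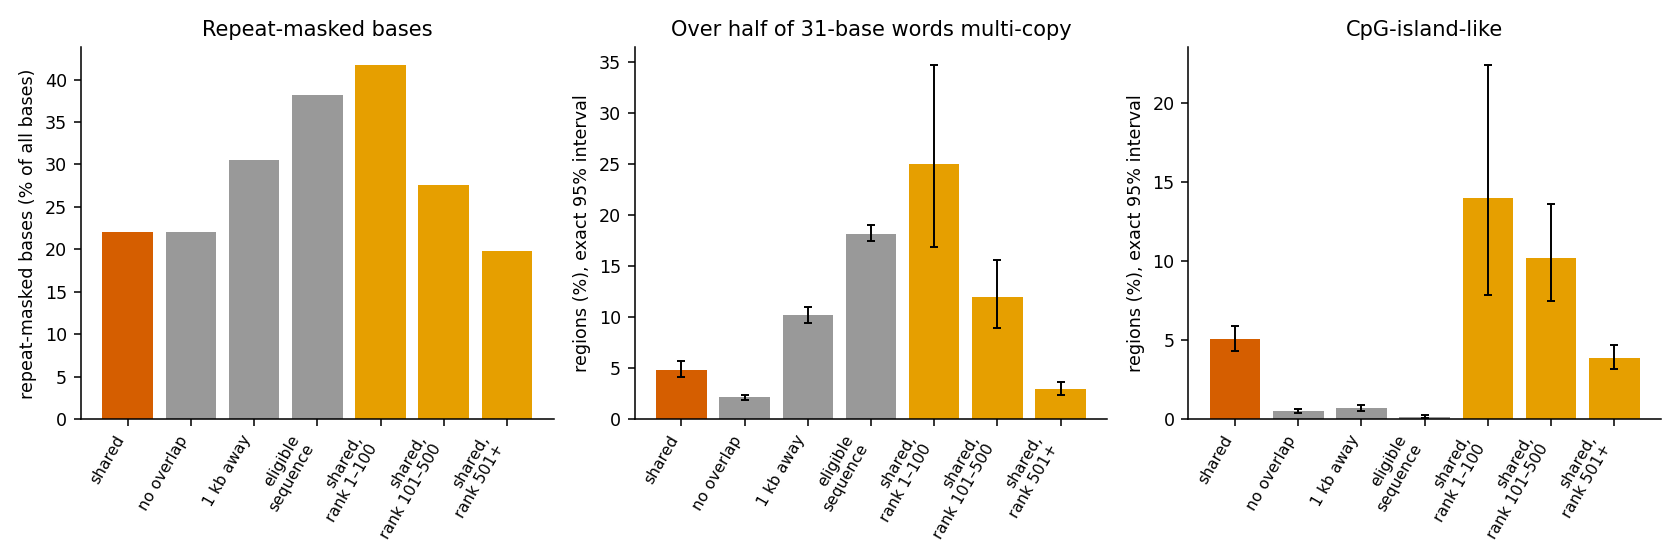
Bars give, for shared distal peaks, distal peaks with no overlap, windows 1 kb away, eligible sequence and 3 ranks of strength of the shared peaks, the percent of repeat-masked bases (left), of regions with over 50% multi-copy words (middle) and of CpG-island-like regions (right), the last 2 with exact 95% intervals. The top 100 shared peaks stand at 41.7%, 25% and 14%, above all shared peaks at 22.1%, 4.86% and 5.06%.

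Dinucleotide repeats of all kinds together were no more frequent in members than elsewhere. A run of at least 10 units was found in 117 members (3.82%, 3.17 to 4.56), in 4.60% of peaks with no overlap, in 6.01% of windows 1 kb away and in 4.33% of eligible windows. The kinds differed. AC/GT runs were in 113 members (3.69%), 4.12% of peaks with no overlap, 3.95% of windows 1 kb away and 2.82% of eligible windows. AG/CT runs were in 4 members (0.131%), and in 0.449%, 1.75% and 1.21% of the other sets in that order. They were thus scarce in distal peaks with no overlap as well. Members with AC/GT runs were about as strong as the others, with a median fold enrichment of 2.59 and 2.43 in the 2 lists. The longest run printed above, near Rps26, lay in a peak with fold enrichments of 3.14 and 2.65.

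Base composition set the shared peaks apart from both the surrounding sequence and the peaks with no overlap. Their median GC content was 53.2%, compared with 50.3% in peaks with no overlap, 46.1% in windows 1 kb away and 42.0% in eligible windows. CpG-island-like peaks, defined here by a GC content of at least 55% and a ratio of observed to expected CpG of at least 0.6, were rare but 155 in number, 5.06% of members (4.31 to 5.90), where they were 0.515% (0.408 to 0.643) of peaks with no overlap, 0.686% of windows 1 kb away and 0.152% of eligible windows. Such sequence is usually found at promoters, and 50 of the 155 (32.3%) lay within 1 kb of the TSS of a gene of any type. Their median −log10 p was 5.10 in the WT-labelled and 7.69 in the Bmi1 KO-labelled list, and 111 (71.6%, 63.8 to 78.6) had the higher percentile in the Bmi1 KO-labelled list. Among the 41 strong members that were neither near a gap nor mostly multi-copy, 14 were CpG-island-like. The strongest of these with no multi-copy word was the peak 33.1 kb from A830005F24Rik, with fold enrichments of 4.96 and 4.63 and a GC content of 70.4%.

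Motifs were read at the summits, because transcription factors bind short sequences and enhancers of a cell type tend to share them. Windows of 100 bp to each side of the WT-labelled summit were searched on both strands for 18 consensus sequences, of which 17 are given, and shares were compared with windows of the same width 1 kb away and with evenly spaced eligible windows. KLF/SP (GGGCGG) matches were in 243 members (7.93%, 7 to 8.95), in 3.20% of windows 1 kb away, 3.80% of peaks with no overlap and 1.53% of eligible windows, a ratio of 2.48 to the windows 1 kb away (2.05 to 3.01). TFAP2 (GCCNNNGGC) matches were in 8.29% of members and 4.03% of windows 1 kb away (ratio 2.06, 1.72 to 2.46; eligible windows 2.56%). Smaller excesses were found for ETS (CCGGAAG; 1.34% of members, ratio 1.74, 1.12 to 2.71; eligible windows 0.581%), for the E-box of the SNAI/ZEB type (CAGGTG; 20.6%, ratio 1.40, 1.26 to 1.55; eligible windows 12%) and for the HES/HEY E-box CACGTG (4.05%, ratio 1.39, 1.10 to 1.76; eligible windows 2.08%). Against distal peaks with no overlap the ratio was 2.09 (1.79 to 2.43) for KLF/SP and 1.39 (1.21 to 1.60) for TFAP2. It was 1.31 (0.903 to 1.85) for ETS, 1.06 (0.971 to 1.16) for CAGGTG and 1.11 (0.904 to 1.35) for the HES/HEY E-box, so for these 3 the shared and unshared peaks differed by less than the intervals. All of these are rich in G and C, and the median GC content was 53.7% in member windows, 46.3% in windows 1 kb away, 50.7% in peaks with no overlap and 42.3% in eligible windows. The part of base composition in these ratios was not tested.

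The homeobox, SOX, GRHL, AP-1 and RUNX motifs were scarcer at summits than 1 kb away. The homeobox core TAATTA was in 1.27% of members and 4.93% of windows 1 kb away (ratio 0.258, 0.180 to 0.361; eligible windows 6.77%), the SOX motif AACAATG in 1.40% and 2.95% (ratio 0.475, 0.332 to 0.666; eligible windows 3.97%) and the GRHL motif AACCNGTT in 0.816% and 1.39% (ratio 0.588, 0.361 to 0.928; eligible windows 1.39%). AP-1 (TGANTCA), a frequent motif of distal open sites, was in 146 members (4.77%) and 5.80% of eligible windows, and its ratio of 0.793 (0.651 to 0.964) came to 0.976 with windows of 50 bp to each side. RUNX (TGTGGTT) was in 3.82% (ratio 0.741, 0.594 to 0.918; eligible windows 5.17%). Against distal peaks with no overlap the ratios were 0.624 (0.435 to 0.872), 0.627 (0.445 to 0.862), 0.653 (0.412 to 0.995), 0.815 (0.679 to 0.972) and 0.925 (0.753 to 1.13) in that order. The homeobox core holds no G or C. Median GC content was 53.7% in member windows, 50.7% in peaks with no overlap and 46.3% in windows 1 kb away. The part of base composition in these lower ratios was not tested either.

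The other motifs given differed by less than their intervals from the windows 1 kb away. They were TEAD (ACATTCC, 2.87% of members and 2.66% of eligible windows), the motif of GATA factors (letters AGATAAG, 60 members, and 3.00% of eligible windows), the Atoh1-type E-box (CAGATGG, 4.8% and 4.28%), the NFI core (TTGGCA, 8.72% and 9.74%), CREB (TGACGTCA, 0.261% and 0.114%) and the RFX core (GTTGCCA, 2.29% and 1.75%). The 12-base core of CTCF, the protein that anchors chromatin loops, was in 10 members (0.326%, 0.157 to 0.6), in 0.310% of windows 1 kb away and in 0.133% of eligible windows. The Atoh1-type E-box was in 5.76% of distal peaks with no overlap, a ratio of 0.834 (0.695 to 0.994) against them. The others of this paragraph differed from those peaks by less than their intervals. A match is a run of letters, not a bound site, and some windows hold more than 1 kind.

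**Figure D4:**
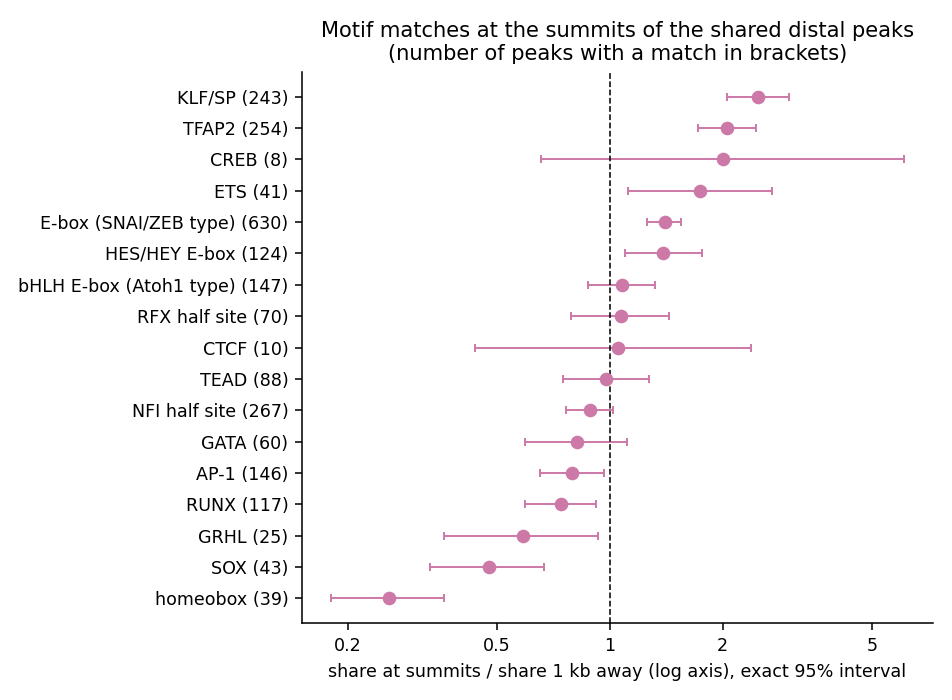
Points give, for 17 motifs, the share of shared distal peaks with a match within 100 bp of the summit divided by the share of windows 1 kb away (log axis), with exact 95% intervals, and the dashed line marks equal shares. KLF/SP at 2.48 and TFAP2 at 2.06 stand highest and the homeobox core at 0.258 lowest.

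The shared distal peaks were spread over many genes. They were nearest to 2110 of the 12952 protein-coding genes that have any eligible sequence around them, a background of 16.3%, and 1515 of these genes had 1 member while 34 had at least 5. Genes nearest to a member had a peak within 1 kb of a TSS in both lists in 53.6% of cases (51.4 to 55.7), compared with 50.1% (48.6 to 51.7, which meets the first interval at its edge) of genes nearest only to distal peaks with no overlap and 42.2% of all genes with eligible sequence. The median length of eligible sequence was 68.0 kb for genes with a member and 39.3 kb for those with only unshared peaks.

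Of the 12 genes with the most members, 6 had all of them within 250 kb of an assembly gap. Of 9 genes with 6 members each, 5 are among the 12, by the −log10 p of their strongest member, and the 4 that are not (Dapl1, Adgrb1, Fam43a and Zfp536) had no member near a gap. Scaf8, whose product binds RNA polymerase II, was nearest to 18 members over 0.09 Mb of eligible sequence, with fold enrichments of 2.01 to 5.37 in the WT-labelled and 1.81 to 5.37 in the Bmi1 KO-labelled list, and all 18 lay within 250 kb of a gap. The vomeronasal receptor gene Vmn1r2 followed with 12, all near a gap, then Gm21119 with 10 that were all near a gap and all mostly multi-copy, and Tcp10c with 9, of which 8 were mostly multi-copy. Prl2c2, of the prolactin family, had 9 far from any gap, of which 1 was mostly multi-copy. Galr1 and 4930467E23Rik had 6 each near gaps, of which 4 and 5 were mostly multi-copy, and the urinary protein gene Mup5 had 6 away from gaps, of which 1 was mostly multi-copy. The others, Cdh26 with 8 members, the vomeronasal receptor gene Vmn2r117 with 7, Haao with 6 and Trim33 with 6, had neither a member near a gap nor one mostly multi-copy. Cdh26 encodes a cadherin, and its 8 members lay 75.6 to 176 kb from its TSS with fold enrichments of 1.99 to 3.69 in the WT-labelled and 1.8 to 2.62 in the Bmi1 KO-labelled list. Those of Trim33, a ubiquitin ligase of the TGF-beta pathway, had 2.32 to 3.07 in the WT-labelled list and at most 2.85 in the Bmi1 KO-labelled list.

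Members nearest to 13 lists of 15 genes each, and to the olfactory receptor genes, were compared by the number of members per Mb of eligible sequence nearest to their genes, since genes differ in how much intergenic sequence surrounds them. Only genes with eligible sequence are counted. The lists were not tested against each other. Genes of supporting and prosensory cells, the cells that surround hair cells and from which they can arise, had 16 members at 6 of 14 genes, 10.1 per Mb (5.76 to 16.4), beside 4.49 over all genes, and their density of all distal WT-labelled peaks was likewise high at 45.3 per Mb beside 26.7. Hes1 and Hey1, transcriptional repressors downstream of Notch that keep supporting cells from becoming hair cells, had 5 members each. The 5 of Hes1 lay from 208 kb upstream to 27.0 kb downstream with WT-labelled fold enrichments of 2.59, 3.11, 2.54, 2.63 and 2.46 and Bmi1 KO-labelled ones of 2.10, 2.54, 2.65, 2.21 and 1.97. The 5 of Hey1 were all upstream, at 11.9, 18, 50.3, 88.8 and 99.4 kb, with WT-labelled fold enrichments of 2.30 to 2.79 and Bmi1 KO-labelled ones of 1.88 to 2.72. All 10 were made mainly of single-copy sequence and far from gaps. Fgf20, a prosensory growth factor, had 2 at 214 and 235 kb, in peaks with 75.3% and 74.5% masked bases. Prox1 had 2, Fgfr3 1 and Sox2 1, and the peak 156 kb from Sox2, the regulator of prosensory identity, had 80.6% masked bases and fold enrichments of 2.18 and 2.42.

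Genes of the hair cells themselves had 1 member at 13 genes, 1.86 per Mb (0.0472 to 10.4), the peak 12.7 kb upstream of Gfi1, a hair cell transcription factor, with fold enrichments of 2.46 and 1.88. That peak missed a q-value of 0.05 in both lists, with a −log10 q of 1.15 and 0.446. Its −log10 p stood at percentile 40.1 of the WT-labelled and 0.47 of the Bmi1 KO-labelled list, and 52.3% of its bases were masked. Hair cell genes have little eligible sequence, 0.537 Mb, so the interval holds the value over all genes. When every list gene with a TSS within 100 kb of a member was counted, not the nearest alone, hair cell genes had 7.81 per Mb, beside 5.43 over all sequence within 100 kb, so no direction can be read for them. At promoters, a peak in both lists was found at 5 of 15 hair cell genes and at 11 of 15 supporting cell genes, compared with 41.1% of all protein-coding genes. Hair cell genes had a promoter peak at 9 of 15 in the WT-labelled and 5 of 15 in the Bmi1 KO-labelled list. Supporting cell genes had one at 13 and 12, and all 21911 protein-coding genes at 10260 and 12921. Among the 13 lists, cell cycle genes had the most with a peak in both, 12 of 15.

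Otic regulators, the transcription factors that set up the ear, had 9 members at 6 of 12 genes (5.15 per Mb, 2.35 to 9.77). The strongest lay 54.2 kb from Gata3, which is needed for the sensory epithelium, with fold enrichments of 3.16 and 2.53. Lmx1a had 2 upstream at 16.7 and 28.1 kb with 2.79 and 2.59 in the WT-labelled and 2.20 and 2.74 in the Bmi1 KO-labelled list. Eya1, a transcriptional coactivator, had 2 within 1 kb of each other at 196 and 197 kb upstream with 2.73 and 2.18 in the WT-labelled and 2.99 and 2.43 in the Bmi1 KO-labelled list. The others were nearest to Gbx2, Pax8 and Sox9.

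Growth factor genes had 9 members at 5 of 15 genes (4.15 per Mb, 1.90 to 7.88), of which 4 were nearest to Wnt7a. The strongest lay 94.2 kb from Bmp7, with fold enrichments of 2.85 and 2.40, and 30.9 kb from Wnt5a, with 2.82 and 2.64. The peaks 52.9 and 61.5 kb from Wnt7a had WT-labelled fold enrichments of 1.99 and 1.93 and Bmi1 KO-labelled ones of 3.23 and 2.74, and the other 2 of Wnt7a had 2.62 and 2.72 beside 2.32 and 2.54. Fgf10 and Fgfr1 had 1 each.

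Polycomb genes had 5 members at 2 of 12 genes (11.5 per Mb, 3.73 to 26.8), with 4 nearest to Ezh2, the methyltransferase of Polycomb repressive complex 2. Those of Ezh2 had WT-labelled fold enrichments of 3.00, 3.04, 2.51 and 2.87 and Bmi1 KO-labelled ones of 2.32, 2.49, 2.49 and 4.64, where the 2 equal values are 1 and the same Bmi1 KO-labelled peak. All 4 lay within 250 kb of an assembly gap, and the 3 upstream ones lay 1.61 to 3.85 kb from Rn4.5s, a small RNA gene at chr6:47654921-47655094. The one with 4.64 consisted of words that all occurred at more than 1 place, with a median of 17 copies. Without members near gaps the list had 2.30 per Mb.

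Cell cycle genes had 9 members at 3 of 12 genes (8.48 per Mb, 3.88 to 16.1). Ccne1, encoding the cyclin that starts S phase, had 2 next to each other at 21.8 and 21 kb, the first with fold enrichments of 3.49 and 4.32 and −log10 p of 10.8 and 19.6, the highest of the 13 lists. Ccnd1 had 2 upstream with fold enrichments of 2.89 and 2.34 in the WT-labelled and 2.46 and 2.43 in the Bmi1 KO-labelled list. Mycn, a driver of progenitor proliferation, had 5 at 57.0 to 176 kb with 2.32 to 2.87 and 2.10 to 3.32.

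Epithelial genes had 4 members at 3 of 11 genes (5.70 per Mb, 1.55 to 14.6). The strongest lay 134 kb upstream of Trp63, a regulator of stratified epithelia and of the otic epithelium, with fold enrichments of 3.69 and 2.65, a second lay 148 kb downstream with 2.64 and 2.21, and Grhl2 and Krt8 had 1 each with 2.46 and 2.29, and 2.37 and 1.95.

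Members were also found near markers of cells that a dissected organ of Corti can carry along. Glia had 5 members at 3 of 11 genes (7.32 per Mb, 2.38 to 17.1; Foxd3 2, Olig2 2, Fabp7 1), endothelium 6 at 5 of 10 genes (5.49, 2.02 to 12; Cldn5 2, Cdh5, Flt1, Kdr and Sox17 1 each), blood and macrophages 2 at 1 of 10 genes (4.07, 0.493 to 14.7; Runx1), neurons 6 at 6 of 13 genes (3.91, 1.43 to 8.51; among them Elavl4, Isl1, Rbfox3, Snap25 and Stmn2) and mesenchyme 2 at 2 of 12 genes (1.04, 0.125 to 3.74; Col1a1 and Pdgfra). By WT-labelled −log10 p the strongest of these were a peak 141 kb from Elavl4, with fold enrichments of 3.00 and 2.21, and one 34.6 kb from Snap25, with 2.88 and 2.64. All these intervals hold the value over all genes except that of mesenchyme, which lies below it. In a mixed tissue, fewer cells of a type and fewer open sites per cell cannot be told apart.

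The ribosomal protein genes, active in every cell, had 5 members at 2 of 7 genes, 22.3 per Mb (7.25 to 52.1) over only 0.224 Mb of eligible sequence, of which 4 were nearest to Rpl14 and 1 to Rpl3, and 10.3 per Mb when every list gene within 100 kb was counted. The 682 olfactory receptor genes with eligible sequence, which are silent outside the nose, had 8 members over 9.07 Mb, 0.882 per Mb (0.381 to 1.74). Over these lists the supporting cell and ribosomal protein genes had intervals above 4.49, the mesenchyme genes and olfactory receptors had intervals below it, and the other 10 lists held it. For all distal peaks, shared or not, the density ran from 9.37 per Mb for olfactory receptors to 98.3 for ribosomal protein genes.

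**Figure D5:**
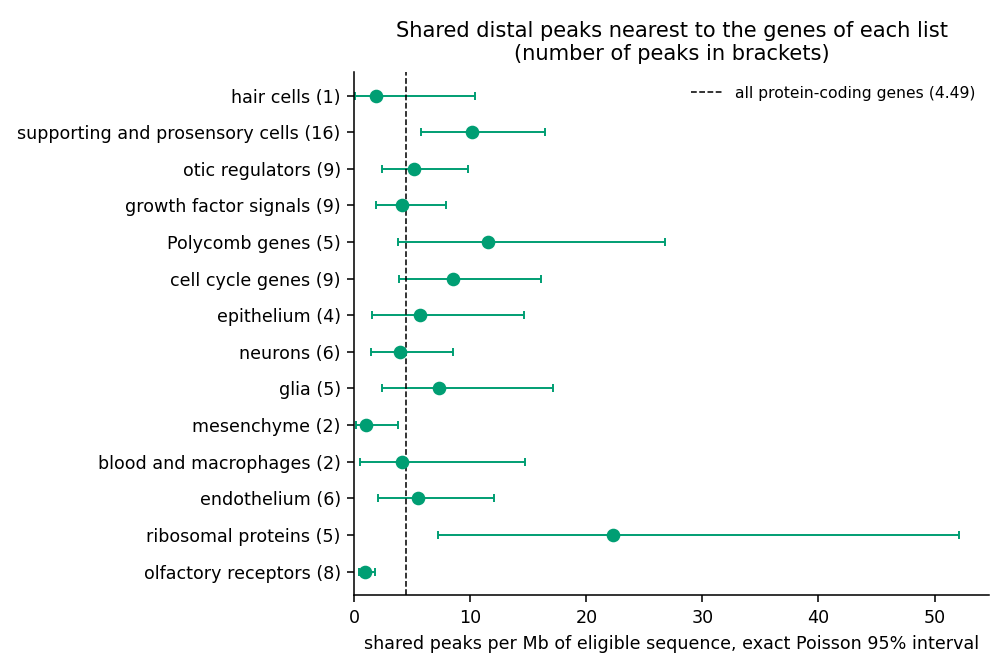
Points give shared distal peaks per Mb of eligible sequence nearest to the genes of 14 lists, with exact Poisson 95% intervals, the number of peaks in brackets and a dashed line at 4.49 for all protein-coding genes. Supporting and prosensory cell genes stand at 10.1 and olfactory receptors at 0.882.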

How the data were processed

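The ATAC-seq data were 2 peak lists, 1 library per genotype (WT and Bmi1 KO by the labels). Per the study's methods and the submitters' processing notes, the authors trimmed the reads, checked them with FastQC, mapped them with BWA (BWA-MEM) to mm10, called peaks with MACS2 in each library and annotated them with HOMER. Versions, MACS2 options and the handling of reads with several placements were not given in the sources used here. Fold enrichment, as the authors deposited it, is a ratio of summit pileup to local background after 1 is added to each. The p-value and q-value of that pileup, within 1 library, were deposited as −log10. The score, which the authors deposited as well, repeats the −log10 p on a scale 10 times larger and was left aside.

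Unplaced contigs were dropped. Gene bodies and TSSs were taken from GENCODE vM21, with a protein-coding TSS defined by protein-coding transcripts of protein-coding genes. Where a member overlapped more than 1 Bmi1 KO-labelled peak (21 members), the one with the highest −log10 p was its partner. Pileup and background were solved from the fold enrichment and −log10 p, which gave whole pileups within 0.05 for 100.0% of peaks in both lists. The lists hold no read totals, so depth is known only as this background, a median of 6.44 in all WT-labelled and 8.04 in all Bmi1 KO-labelled peaks. Software was scipy 1.17.1, numba 0.67.0, matplotlib 3.10.9, pandas 2.3.3 and numpy 2.4.6 under Python 3.11.15, and the searches for overlaps, words and motifs were tested on simulated data. Repeats, words, gaps and sequences came from the NCBI GRCm38.p6 genome. Shares have exact binomial, densities exact Poisson and ratios exact conditional 95% intervals, which cover counting error only. Genotypes were not tested against each other, since each has 1 library.

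The genes named are the 12 with the most members nearest to them, those nearest to the 10 strongest members and, for each list, the genes nearest to a member, with values for up to 3. A few list genes and 1 motif are not reported here. In some lists values of further genes are given, chosen after they were seen. The members, gene lists, motifs and the definition of CpG-island-like peaks were chosen with earlier results of these data known. The alternatives tried changed the overlap, the thresholds on q, the annotation, distance, width, windows and backgrounds, and left out multi-copy members.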

Additional observations from a re-analysis of the deposited data

How the results depend on the processing

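The 3063 members became 1710 with a reciprocal overlap of 50%, 1477 where the summit of any overlapping peak lay within 100 bp, 1325 with a q-value of at most 0.05 in both lists, 98 when each list had to reach a −log10 q of 5, and 1737 at 20 to 100 kb. The share of distal WT-labelled peaks in both lists, 16.8%, came to 9.40%, 8.12%, 14.6% and 56.3% under the first 4 of these, to 13.8% with the same number of strongest peaks from each list and to 12.5% when counted in the Bmi1 KO-labelled list. Masked bases moved from 22.1% to 25.2% at a q-value of at most 0.05, 42.8% at a −log10 q of at least 5, 20.2% without multi-copy members and, in an alternative chosen after seeing the data, 20.1% without members near assembly gaps. The CpG-island-like share rose from 5.06% to 7.77% at a q-value of at most 0.05, also chosen after seeing the data. The KLF/SP ratio was 3.16 within 50 bp of the summit, 3.12 against windows 3 kb away and 3.10 at a q-value of at most 0.05. The AP-1 ratio was 0.976 within 50 bp. Against distal peaks with no overlap, TFAP2 came to 1.39 and the homeobox core to 0.624.

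At a q-value of at most 0.05, where all genes had 1.94 members per Mb, supporting and prosensory cell genes had 4.41, epithelium 1.42, neurons 1.3, glia 1.46 and olfactory receptors 0.221, and hair cells, mesenchyme, blood and endothelium had 0. A reciprocal overlap of 50%, with 2.51 over all genes, gave 3.77 for cell cycle genes and 0.916 for endothelium. Counting every list gene with a TSS within 100 kb, where all sequence in that range had 5.43, gave 2.04 for olfactory receptors, 7.81 for hair cells (1.86 by the nearest gene), 7.85 for otic regulators (5.15), 6.87 for growth factors (4.15), 14.2 for glia (7.32), 10.3 for blood (4.07) and 10.3 for ribosomal proteins (22.3). Without members near gaps, also an alternative chosen after seeing the data, Polycomb genes had 2.30. Of 140 alternative values, 105 stayed within the 95% interval of the reported value or, for counts, within 1.5 times, and 35 moved. The cause of these moves was not tested, beyond the smaller number of members that stricter rules leave.

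No paired analysis was possible because each genotype has 1 library. Peaks have a median pileup of 19 reads in the WT-labelled list, repeats were not divided by class, and the nearest gene need not be the gene a region acts on.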

Other observations

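Of the 34 genes with at least 5 shared distal peaks nearest to them, 4 that are in no list are described here. They were chosen after their values were seen, and other genes had as many. Their members were mostly single-copy and far from gaps. Zfp536, a zinc finger repressor of neuronal differentiation, had 6 at 30.3 to 102 kb, with fold enrichments of 2.15 to 2.69 in the WT-labelled and 2.06 to 3.32 in the Bmi1 KO-labelled list. Lmx1b, a LIM homeobox gene related to Lmx1a, had 5, all upstream at 19.5 to 80.7 kb, at a density of 60.2 per Mb of eligible sequence, with 2.12 to 3.00 and 2.08 to 2.76. Hmx1, a homeobox gene of craniofacial and ear development, had 5 at 14.1 to 54.3 kb with 2.38 to 2.89 and 1.8 to 2.76, a density of 51.7 per Mb. Cxcr4, the receptor of the chemokine Cxcl12, had 5, all upstream at 109.7 to 212 kb, with 2.27 to 3.41 and 1.99 to 2.51.

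The strongest member with no multi-copy word and far from gaps lay 12.4 kb upstream of Ifngr2, an interferon gamma receptor gene, with fold enrichments of 7.37 and 6.94 and −log10 p of 33.7 and 40.6. Among the next ones, CpG-island-like peaks lay 16.8 kb from the chromatin remodeller gene Chd2 (fold enrichments 4.74 and 4.18), 23.2 kb from Rps6ka1 (4.07 and 4.47), 35.4 kb from Mef2d (4.05 and 3.34) and 105 kb from Zfat (3.84 and 5).

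KLF/SP matches were in 91 of the 155 CpG-island-like members (58.7%, 50.5 to 66.5). In the other 2908 members they were in 152 (5.23%, 4.45 to 6.10), where windows 1 kb away had 2.87% (ratio 1.82, 1.45 to 2.28). The median GC content of these 2908 members was 53%, and the part of base composition in this ratio was not tested.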
